A study of Rattus norvegicus with 4 samples.

Results

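The miR-144 and miR-451 cluster is a pair of neighbouring microRNA (miRNA) genes whose products come from 1 primary transcript of red-cell precursors. The array measured 3 of its products, rno-miR-451-5p, rno-miR-144-3p and rno-miR-144-5p, which were taken by name from the 719 rat miRNAs of the array and had 6 of its 1730 probes. Their levels were followed in RNA from serum exosomes, small vesicles shed by cells, over 4 arrays with 1 array for each group. All rats were male, and the design text calls them baffolo rats. The naive group had no injection and stands for day 0. The light group was sampled at day 35, and the moderate and severe groups at day 49, after injection of a hepatocellular carcinoma (HCC) cell line whose name the labels do not give. The protocol in the labels injects cells, whereas the design text names exosomes as the injected agent. The design text reports 4 experiments per time with different rats. With 1 array per group no error between rats can be given, and the labels do not say whether RNA was pooled. Each ± below is a standard error over replicate spots of an array and covers spot noise only, so no p-value is given. Against naive, disease state and day changed together and cannot be told apart.

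In red-cell precursors the transcription factor GATA1 switches on the primary transcript that holds both hairpins. The hairpin of miR-144 is cut by Dicer, so it can give a product from each arm. The hairpin of miR-451 is too short for Dicer and is cut by Argonaute 2, and its mature sequence runs through the stem into the loop. miR-451 is abundant in mature red cells and enters serum when red cells break, so its ratio to miR-23a-3p is in use as a measure of red-cell lysis. miR-144 lowers the oxidative stress factor Nrf2, and in zebrafish it also lowers Dicer.

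The hairpins are shown because the comparison of partners and arms rests on their layout. They lie on chromosome 10, plus strand, in the rat build GRCr8, and the sequences are those of RefSeq in that build. The array files carry an rn4 annotation without coordinates for these probes, and nothing was converted between builds. Mir144 covers chr10:63459397-63459479 and Mir451a covers chr10:63459569-63459640, with 89 bases between them. Capitals mark the mature products that the array measured as members, which for Mir144 are miR-144-5p first and miR-144-3p second.
Mir144: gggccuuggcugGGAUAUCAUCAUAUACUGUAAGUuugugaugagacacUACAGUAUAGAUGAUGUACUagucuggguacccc
Mir451a: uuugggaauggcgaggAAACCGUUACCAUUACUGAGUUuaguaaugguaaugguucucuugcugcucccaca

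The mature products are shown with the seed, bases 2 to 8, in capitals, since the seed sets which messenger RNAs a miRNA pairs with.
rno-miR-451-5p: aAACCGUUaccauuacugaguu
rno-miR-144-3p: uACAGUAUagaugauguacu
rno-miR-144-5p: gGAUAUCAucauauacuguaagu

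Each of the 3 products had a seed of its own. Of the 719 names on the array, 641 had a RefSeq mature sequence, and no other miRNA among them shared bases 2 to 8 with a member. miR-101a-3p and miR-101b-3p share bases 2 to 7 with miR-144-3p, and are shown with those bases in capitals.
rno-miR-101a-3p: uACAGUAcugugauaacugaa
rno-miR-101b-3p: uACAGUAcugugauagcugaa

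The nearest other mature sequence differed from each member by 8 single-base edits, so no near-identical copy of a member was found among these 641. Lengths were 22, 20 and 23 bases for miR-451-5p, miR-144-3p and miR-144-5p. All were poor in G and C, at 36.4%, 30.0% and 30.4%.

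The scanner software detected 122 to 176 miRNAs per array, of which 111 were detected on every array. The arrays differed in brightness: relative to naive, the summed signal of detected miRNAs was 0.643 times for light, 1.58 times for moderate and 0.694 times for severe disease. The labelling spike-ins, synthetic RNAs added before labelling, stood at 0.974, 0.891 and 0.6001 times their naive signal. The severe array had 525 spots marked as outliers and the other arrays 386 to 387. Signals were therefore divided by the 75th percentile of the 111 miRNAs before log2 differences were taken, and 6 other scalings are given beside them. An array of miRNAs holds no marker of the vesicles themselves, so the exosome label could not be checked.

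miR-451-5p was bright on every array. Its signal, summed over 2 probes, was 27775 ± 114 intensity units in naive serum, 19496 ± 89.7 in light, 43838 ± 174 in moderate and 14052 ± 70.4 in severe disease. All 20 of its spots were well above background on each array. The spot ranges of the 4 arrays did not overlap for either probe. The arrays' summed signals come in the same order, save that light and severe change places. After scaling, the light array was highest at 54.8, then moderate at 46.0, naive at 41.7 and severe at 33.8, in units of the 75th percentile. miR-451-5p took 19.96% of the summed signal of detected miRNAs in naive serum, 21.8% in light, 19.9% in moderate and 14.5% in severe disease. Signal also depends on how each probe binds, so these shares are not shares of molecules. In serum, fewer vesicles from a source and less of the miRNA per vesicle cannot be told apart.

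miR-144-3p ran in another order. Its summed signal was 169 ± 1.99 in naive serum, 234 ± 2.59 in light, 212 ± 2.93 in moderate and 371 ± 1.60 in severe disease, again with all 20 spots well above background on each. The severe array was thus the highest for miR-144-3p and the lowest for miR-451-5p. For the brighter probe the severe spots lay between 299 and 309 and the naive spots between 135 and 150. The light spots, at 181 to 206, overlapped the moderate spots, at 164 to 193. For the dimmer probe the severe spots lay between 61.0 and 71.7, above all spots of the other arrays. After scaling the order was severe at 0.894, light at 0.657, naive at 0.253 and moderate at 0.222.

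miR-144-5p, the other arm of the same hairpin, was near the limit of detection. Its summed signal was 4.99 ± 0.987 on the naive array and 7.52 ± 0.972 on the light array, where it was not detected. Both lie under the floors of those arrays, 15.6 and 15.1. The floor is the dimmest mean among probes for which a share of 0.5 or more of the spots cleared background. The software detected it on the moderate array, at 13.5 ± 0.969 against a floor of 13.1, with 4 of 20 spots well above background. On the severe array it reached 38.2 ± 1.16, with 10 of 20 spots well above background, all of them of the brighter probe. That probe's severe spots lay between 24.9 and 33.7, above its spots on every other array, where the highest was 17.4. The dimmer probe had no spot well above background on any array, and its mean was 7.75 in severe disease against −1.26 in naive serum, −1.24 in light and 0.605 in moderate disease.

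miR-451-3p, which is no member here, is annotated on the far side of the miR-451 loop. It was not detected on any array, with sums of −5.44 in naive serum, −2.62 in light, −3.71 in moderate and −4.46 in severe disease. Of its 20 spots per array, 0 were well above background.

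**Figure D1:**
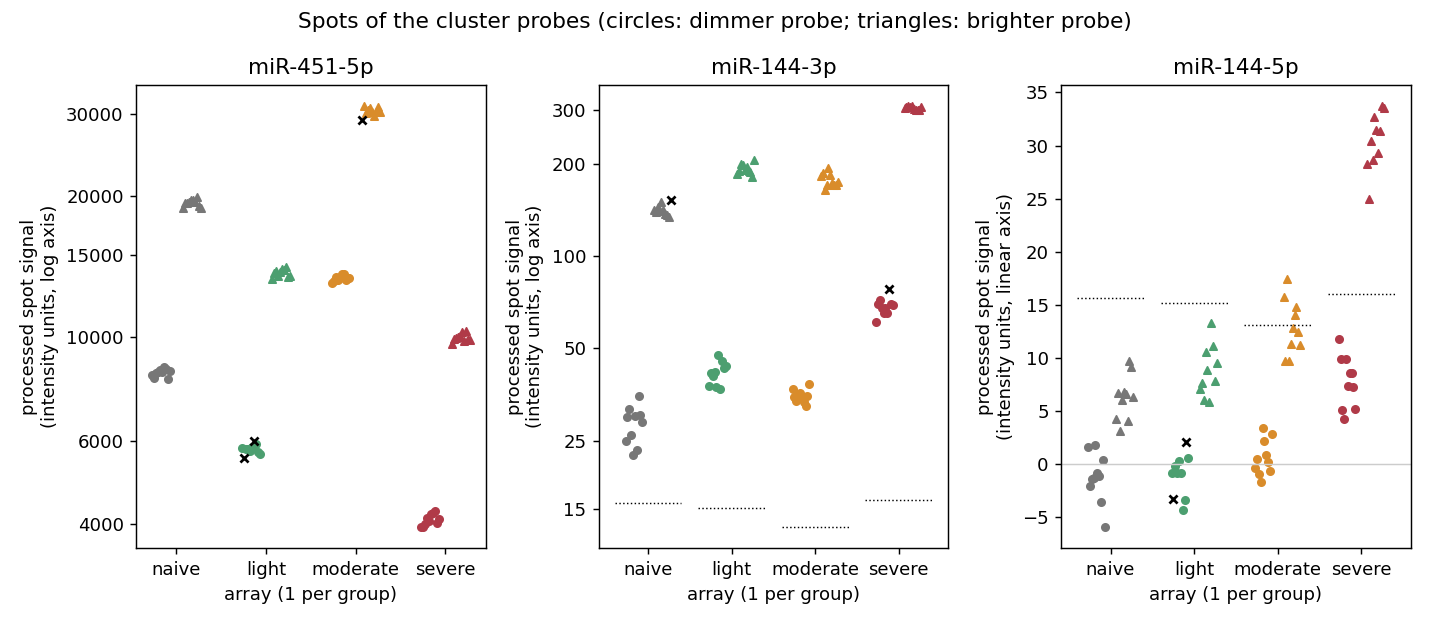
Processed signal of each spot (intensity units) by array, for miR-451-5p and miR-144-3p on log axes and miR-144-5p on a linear axis. Circles are the dimmer and triangles the brighter probe, crosses are spots marked as outliers and left out, and dotted lines are the floor of each array. The severe spots are the lowest for miR-451-5p and the highest for both arms of miR-144.

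The light array was first set against the naive array, to show the cluster at the earliest sampled disease state. miR-144-3p was 2.59-fold higher (log2 1.38 ± 0.02). This was the highest log2 difference among the 117 miRNAs measured on both arrays. miR-451-5p differed by 0.39 ± 0.01, where the median of all 117 was 0.27. Of the 2 members measured, 1 was therefore at least 2-fold higher, where 1.56% of 128 miRNAs measured on 1 or both arrays were at least 2-fold higher and 0.781% lower. The scaling matters for both. The log2 difference of miR-144-3p ranged from 0.47 without scaling to 1.38 and was above 0 under all 7 scalings, whereas that of miR-451-5p ranged from −0.51 to 0.39 and was above 0 under 4 of 7. miR-144-5p was not measured on either array.

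Neither partner was 2-fold apart between the moderate and naive arrays. miR-451-5p stood at log2 0.14 ± 0.01 and miR-144-3p at −0.19 ± 0.03, against a median of 0.22 over 126 miRNAs. Over the 7 scalings miR-451-5p ranged from −0.00059 to 0.82 and miR-144-3p from −0.33 to 0.49, so neither had a settled direction. In this comparison 5.42% of 166 miRNAs were at least 2-fold higher and 1.20% lower. miR-144-5p was measured on the moderate array alone, but its scaled signal there lies under the naive floor, so no direction can be given.

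Between the severe and naive arrays both arms of miR-144 were higher and miR-451-5p was not. miR-144-3p was 3.53-fold higher (log2 1.82 ± 0.02), and between 1.14 and 1.87 on the log2 scale over the 7 scalings. miR-144-5p was at least 3.91-fold higher, a bound that sets the sum of its probes against the naive floor of a single probe. On the log2 scale the bound was 1.97, and 1.57 with the brightest probe of each miRNA in place of the sum. miR-451-5p had a log2 difference of −0.30 ± 0.01. The 7 scalings gave it −1.23 to −0.25, past 2-fold lower only with quantile normalization. That method sets values by rank. On the severe array miR-1224 read 19827 intensity units, above the 14052 of miR-451-5p, but on the naive array 9508 against 27775. In all, 2 of 3 members were at least 2-fold higher and 0 lower, where 24.1% of 137 miRNAs were at least 2-fold higher and 18.2% lower. Both of these members are arms of the same hairpin. miR-144-5p enters the count only because it was measured on the severe array. The median over the 109 miRNAs measured on both arrays was −0.11, and 14 of them had a larger rise than miR-144-3p. The severe array also had the lowest spike-in signal and the most outlier spots, and their part in these values was not tested.

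The severe and moderate arrays compare disease states at the same day. miR-144-3p was 4.02-fold higher on the severe array (log2 2.01 ± 0.02), and 0.81 without scaling, where it missed 2-fold. miR-144-5p was 6.49-fold higher (log2 2.70, and 1.16 with normexp background correction, the lowest of the settings tried). The value rests on its dim moderate signal and is not a lower bound. On the moderate array neither of its probes had a share of 0.5 of its spots well above background. Only the sum of both passed the floor. miR-451-5p stood at −0.44 ± 0.01, close to the median of −0.41 over 115 miRNAs. Its range over the scalings was −1.64 to −0.31. At least 2-fold higher were 2 of 3 members and 17.8% of 169 miRNAs, and at least 2-fold lower were 0 members and 17.8% of the miRNAs. Both of the higher members are arms of the same hairpin.

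**Figure D2:**
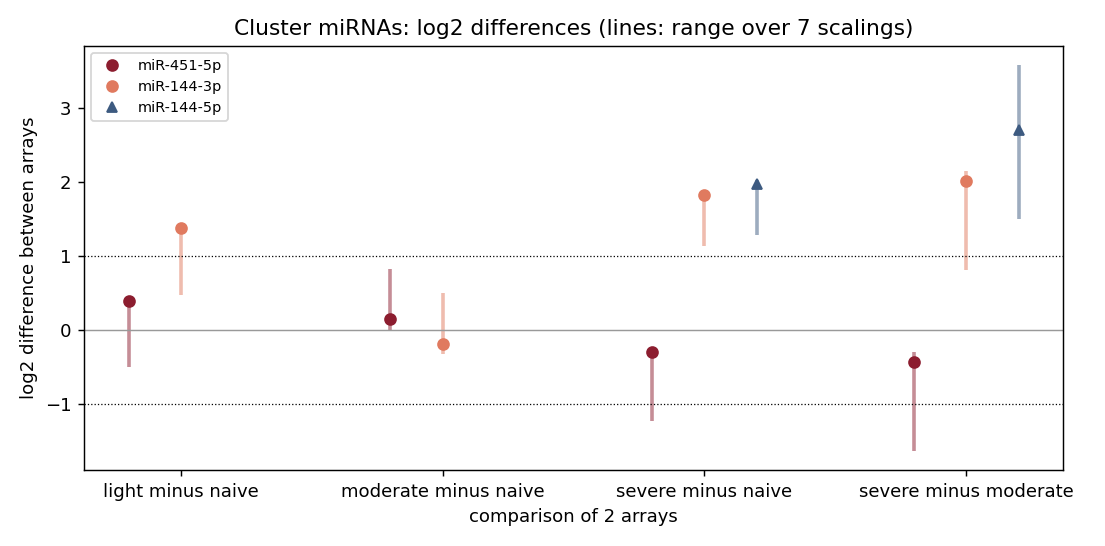
Log2 difference between 2 arrays (vertical axis) for each cluster miRNA in 4 comparisons. Circles are measured values, triangles are lower bounds, vertical lines span 7 scalings and dotted lines mark 2-fold. For severe against moderate the triangle of miR-144-5p is a value that rests on its dim moderate signal. miR-144-3p and miR-144-5p lie above 0 in the comparisons of the severe array, and miR-451-5p lies below 0 there.

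The partners of the cluster were then compared directly. The change in the ratio of miR-144-3p to miR-451-5p between 2 arrays does not change with any scaling by 1 factor per array, but it can change with offsets or effects that depend on brightness. Relative to naive, the ratio was 1.97-fold higher in light (log2 0.98 ± 0.02), 1.26-fold lower in moderate (log2 −0.33 ± 0.03) and 4.35-fold higher in severe disease (log2 2.12 ± 0.02). The change for severe against naive was 2.80 with quantile normalization and 1.70 with normexp. The severe ratio was 5.47-fold higher than the moderate one (log2 2.45 ± 0.02). The ratio of products of 1 transcript was thus higher on the light and severe arrays and lower on the moderate array than on the naive array. Each miRNA had 2 probes, and the 4 probe combinations gave 2.07 to 2.30 for severe against naive and 0.95 to 1.10 for light against naive. For moderate against naive they gave −0.36 to −0.32. A ratio shows unequal change and does not say which partner changed.

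The probes of miR-144-3p gave differences of the same sign, and so did those of miR-451-5p. For miR-144-3p the dimmer and brighter probes gave 1.94 ± 0.07 and 1.79 ± 0.02 for severe against naive, and 1.46 ± 0.07 and 1.36 ± 0.02 for light against naive. For miR-451-5p they gave −0.36 ± 0.02 and −0.28 ± 0.01 for severe against naive, and 0.36 ± 0.01 and 0.41 ± 0.01 for light against naive. The dimmer probe held 16.5% to 18.2% of the summed signal of miR-144-3p and 29.0% to 30.5% of that of miR-451-5p.

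Other miRNA clusters give a background for the partners. Pairs were formed from miRNAs of different hairpins whose genes lie within 10 kb on the same strand in RefSeq, a rule chosen after the values were seen, and pairs within the miR-144 and miR-451 cluster were left out. For severe against naive, 36 other pairs were measured on both arrays, and 16.7% of them differed at least 2-fold between partners. Their median difference was 0.46 on the log2 scale and the largest was 1.97, against the 2.12 of miR-144-3p and miR-451-5p. For severe against moderate, 13.9% of 36 other pairs differed at least 2-fold, and 1 of them exceeded the 2.45 of the cluster, at 2.55. For light against naive it was 8.57% of 35 pairs, of which 3 exceeded 0.98, and for moderate against naive 2.63% of 38 pairs, of which 8 exceeded 0.33. Pairs of a cluster share members, so they are not independent, and no test was made.

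**Figure D3:**
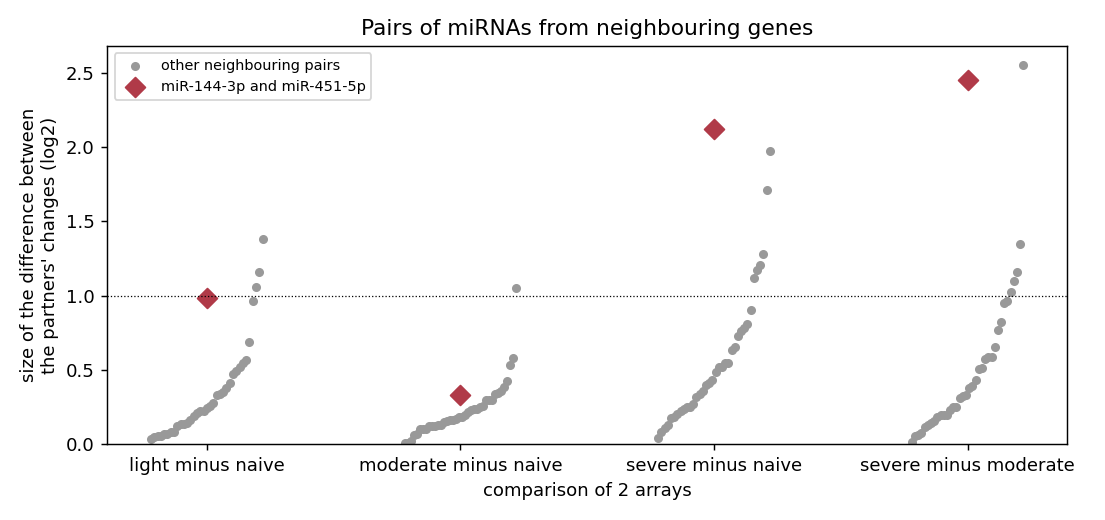
Size of the difference between the log2 changes of 2 neighbouring miRNAs (vertical axis) for every pair measured on both arrays, in 4 comparisons. Grey points are pairs of other clusters, diamonds are miR-144-3p with miR-451-5p, and the dotted line marks 2-fold. The diamond is above every other measured pair for severe against naive.

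Both arms of miR-144 were higher on the severe array. Against moderate, the ratio of miR-144-5p to miR-144-3p was higher by 0.69 on the log2 scale, under the 2-fold threshold. That value rests on the dim moderate signal of miR-144-5p. The value was 0.44 with the brightest probe of each miRNA and −0.31 with normexp. Against naive the bound was 0.15, which was −0.15 with the brightest probe. An unequal change of the arms was therefore not established at this signal. For light and moderate against naive no ratio of the arms could be formed.

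Few other hairpins had both arms measured. Of 260 other hairpin names with both arms on the array, 6 were measured for severe against moderate, and 66.7% of these differed at least 2-fold between arms. The share was 40.0% of 5 for severe against naive, 16.7% of 6 for light against naive and 14.3% of 7 for moderate against naive. As miR-144 gave a value resting on a dim signal, a bound or no value, it was not ranked among them.

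The miRNAs closest to miR-144-3p in seed did not pass 2-fold in these comparisons. miR-101a-3p read 31.1 intensity units in naive serum, 25.7 in light, 68.1 in moderate and 20.6 in severe disease. miR-101b-3p read 81.7, 69.7, 158 and 65.8 in that order. Between severe and naive they stood at log2 0.09 and 0.37, against 1.82 for miR-144-3p. For light against naive they stood at 0.63 and 0.67, against 1.38. Before scaling, both were brightest on the moderate array, which had the highest summed signal, and miR-144-3p was not. After scaling, both were highest on the light array, with moderate against naive at 0.61 and 0.43.

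Other red-cell miRNAs were read beside the cluster. Of 9 listed, 8 were on the array under the listed names and miR-486 was not matched. On every array 5 of the 8 were detected by the software, and miR-96-5p and miR-182 were detected on none. Between light and naive, and between moderate and naive, 0 of 8 were at least 2-fold apart, with medians of 0.13 in each over 4 measured on both arrays. miR-363-3p had a lower bound of 0.90 in each, set against the naive floor of 15.6. Its own naive signal was 15.1, just under that floor. Before scaling it read 15.6 in light and 41.7 in moderate disease. How far its rise passes the bound was not measured. On the severe array the median against naive was −0.03, with miR-16-5p, abundant in red cells and in many other cells, at −0.71, and miR-25-3p at −0.18. miR-92a-3p and miR-107-3p stood at 0.12 and 0.32. 1 of 8, miR-183-5p, was at least 2-fold higher there, as a bound of 1.64. The share was 24.1% of the 137 miRNAs measured on 1 or both arrays. miR-96-5p, miR-182 and miR-363-3p had no severe against naive value, and miR-183-5p enters only because it was measured on the severe array. Its summed signal was 30.5 on the severe array and below 0 on the others. The summed scaled signal of the list was 19.0 in naive serum, 21.4 in light, 20.3 in moderate and 15.5 in severe disease. That order, light first and severe last, is the one seen for scaled miR-451-5p. Most of the sum came from miR-16-5p and miR-92a-3p, at 7065 and 4235 of 12676 intensity units in naive serum. The shared order therefore does not describe the list as a whole.

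The ratio of miR-451-5p to miR-23a-3p changed less than 2-fold in each comparison. Against naive its log2 change was 0.02 ± 0.02 in light, −0.40 ± 0.02 in moderate and −0.36 ± 0.02 in severe disease. The severe and moderate arrays differed by 0.04 ± 0.02. The same ratio with miR-144-3p in place of miR-451-5p changed by 1.003 ± 0.03, −0.73 ± 0.03 and 1.76 ± 0.02. These are changes of a ratio on arrays and were not set against the thresholds used for quantitative PCR.

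Markers of other sources were read on the same arrays. Between the severe and naive arrays, 24.1% of the 137 miRNAs measured on 1 or both were at least 2-fold higher and 18.2% lower. Of the platelet list, 1 of 6 was at least 2-fold lower and 0 higher, and miR-191a-5p gave no value. Of the leukocyte list, 2 of 7 were lower and 0 higher. The medians over miRNAs measured on both arrays, 5 in each list, were −0.91 for platelets and −0.64 for leukocytes. In the liver list 1 of 3, miR-192-5p, was higher at 1.56 and 0 lower, while the hepatocyte miRNA miR-122-5p stood at −0.75, and in the muscle list 2 of 4 were lower and 0 higher. Summed scaled signals on the naive and severe arrays were 18.8 and 13.0 for platelets, 2.87 and 1.59 for leukocytes, 2.17 and 2.42 for liver and 1.89 and 0.1003 for muscle. On the light array they were 25.5, 3.89, 0.795 and 1.18, and on the moderate array 26.8, 2.46, 1.496 and 3.60. miR-194-5p of the liver list was not detected on any array, and miR-133a-3p and miR-206-3p of the muscle list gave no severe against naive value. The part of these sources in the cluster's values was not tested.

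**Figure D4:**
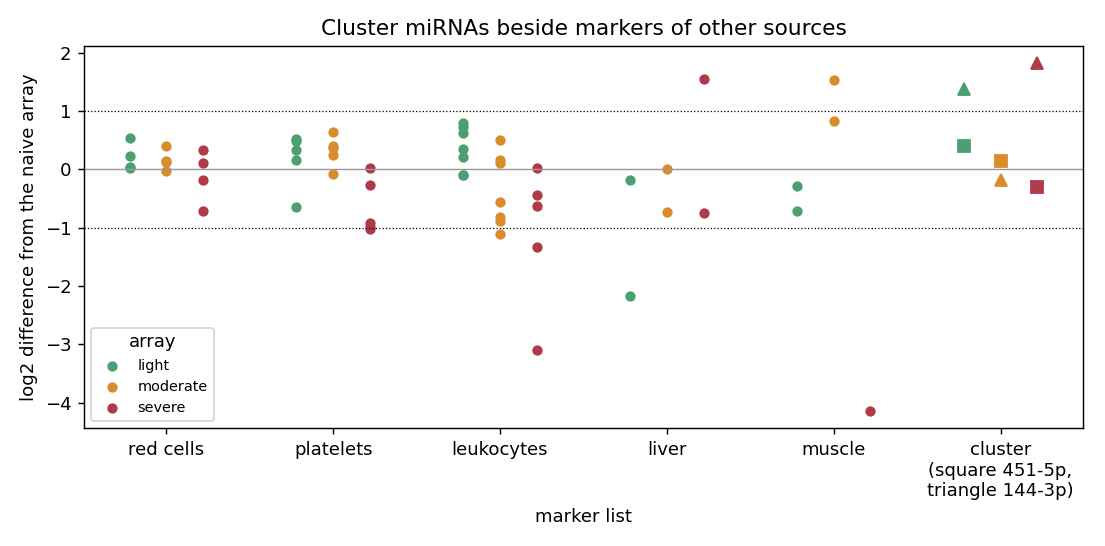
Log2 difference from the naive array (vertical axis) for listed miRNAs measured on both arrays, by marker list and array. Circles are listed miRNAs, squares miR-451-5p and triangles miR-144-3p, and dotted lines mark 2-fold. The rightmost column holds the cluster. The squares lie among the 4 red-cell miRNAs measured on both arrays and the triangles do not, but miR-183-5p and miR-363-3p, known only as bounds, are not drawn. The squares also lie within the range of the platelet and of the leukocyte circles.

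The profiles most like each partner were found among the 104 miRNAs measured on every array. Likeness was the root mean square distance between scaled log2 values on the 4 arrays, each centred on its own mean. For miR-451-5p the closest were miR-484, miR-93-5p, miR-186-5p, miR-24-3p and miR-22-3p, at distances of 0.083, 0.084, 0.096, 0.11 and 0.12. Of these, miR-24-3p and miR-22-3p are on the platelet list and none is on the red-cell list. miR-144-3p came in place 86 of 103, at 0.95. The closest to miR-144-3p were farther from it, with miR-1224 at 0.43, miR-211-3p at 0.44, miR-130b-3p at 0.47, miR-21-5p at 0.53 and miR-3593-3p at 0.58. From miR-144-3p, miR-451-5p came in place 46. miR-1224, like miR-144-3p, was highest on the severe array, with 9508 intensity units in naive serum, 6181 in light, 9745 in moderate and 19827 in severe disease. miR-21-5p, often raised in tumours, read 1969, 1778, 3675 and 2551 in that order before scaling. After scaling it too was highest on the severe array, with log2 differences from naive of 0.76 in light, 0.38 in moderate and 1.06 in severe disease. The 4 points share the arrays and their scaling, so likeness is a description of these arrays.

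Brightness and base composition of the partners were also set beside those of other miRNAs, after the values were seen. For severe against naive, 38 other miRNAs had a naive signal within 2-fold of that of miR-144-3p, and 11 of them were at least 2-fold higher and 10 lower, with a median of −0.11. For light against naive, 1 of 40 such miRNAs was higher and 0 lower. Among 9 other miRNAs with a naive signal of at least a 10th of that of miR-451-5p, 1 was higher and 0 lower on the severe array, with a median of −0.28 against −0.30 for miR-451-5p. Of the 14 measured miRNAs as poor in G and C as miR-451-5p or poorer, both partners included, 3 were higher and 3 lower on the severe array, miR-144-3p among the higher ones. Across 97 miRNAs the Spearman correlation of the severe against naive difference with GC content was 0.22, and miRNAs of 1 array share its scaling and hybridisation.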

How the data were processed

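RNA was hybridised in 1 colour to 4 Agilent rat miRNA arrays of design 046066, which share a slide and a scan time per the file headers. The labels' labelling protocol describes cRNA amplification, which differs from what a miRNA array implies; this was not resolved. Spot intensity was deposited after background subtraction and detrending by Feature Extraction 10.7.3.1 with protocol miRNA_107_Sep09, per the file headers; the submitters' processing notes name 9.1. The deposited files also hold a total intensity per miRNA, 0.1 where not detected, and a detection call. The deposited value table holds that total intensity for part of the miRNAs, including miR-451-5p and miR-144-3p.

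Each member had 2 probes with 10 spots each per array. Among their 240 spots, 7 outliers were dropped and 0 were saturated. Signals were averaged over spots, summed over probes, then scaled to log2 by the 75th percentile of the 111 miRNAs that every array detected (naive 666, light 356, moderate 954, severe 415). A detected miRNA at or above its array's floor counted as measured. If only 1 of 2 arrays measured it, the difference is a bound, set against the floor or its own dim signal, whichever was higher. A call means at least 2-fold. With 4 arrays and 1 per group, their number limits the precision, and no test was possible. Alternatives changed the scaling, value per miRNA, background correction, detection, floor, source table and probes. Named miRNAs were the members, the 5 profiles most like each, miRNAs sharing bases 2 to 7 of a seed, miR-23a-3p and list members. The members and lists were chosen with earlier results of these data known. The comparison with neighbouring genes, brightness and base composition were added after the data were seen. Code ran in Python 3.11.15 with pandas 2.3.3, and normexp in limma 3.58.1. The steps were tested on simulated data, where the scaling factor came only from miRNAs set as unchanged. The scaling used for the real arrays was therefore not tested by it.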

Additional observations from a re-analysis of the deposited data

Results flagged for a closer look

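The ratio of miR-144-3p to miR-451-5p is singled out because it changed in opposite directions on arrays compared with the same naive array. Against naive it stood at log2 0.98 on the light array and 2.12 on the severe array, but at −0.33 on the moderate array. The moderate change was 1.26-fold, under the 2-fold threshold, and 8 of 38 other neighbouring pairs had a larger one. The opposite direction therefore rests on a small difference. In each comparison 9 of 18 alternatives left the value within 0.001, mostly because 1 factor per array cancels in a ratio, and the other 9 kept its sign. They gave 0.77 to 1.23 for light, 1.70 to 2.80 for severe and −0.49 to −0.20 for moderate. With 1 array per group the difference between the arrays was not tested. Labelling spike-ins stood at 0.974, 0.891 and 0.6001 times naive on these arrays, and their part in the ratio was not tested.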

How the results depend on the processing

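With 1 array per group, no array could be left out and no replicate error exists. Dim signal limits miR-144-5p most, since only the sum of its probes passed the floor on the moderate array and not at all on the naive and light arrays. The 16 differences of the cluster were recomputed under their alternatives, giving 260 values. Of these, 234 kept the side of 2-fold and did not reverse in sign, 16 crossed the 2-fold threshold and 10 changed sign where neither value was past 2-fold. The 234 include miR-451-5p with quantile normalization for light and for moderate against naive, where the value was 0 and had no sign. The cause of these changes was not tested. Part of the 234 could not change, because scaling by 1 factor per array cancels in the ratios of the partners and of the arms. The other detection rule left all 16 differences as they were, and the other floor changed only the bounds against naive. The 234 is therefore not a measure of how robust the differences are.

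For light against naive, miR-144-3p was at 0.47 without scaling, 0.51 with labelling spike-ins, 0.99 with the brightest probe and 0.94 with normexp. miR-451-5p was at −0.51 without scaling and −0.47 with spike-ins. The ratio of the partners was at 1.23 with quantile normalization, 1.01 without the brighter probe of miR-451-5p and 1.07 without that of miR-144-3p. For moderate against naive, miR-451-5p was at −0.00059 with median scaling, and miR-144-3p at 0.33 without scaling, 0.12 with the 75th percentile over all miRNAs above 0 and 0.49 with spike-ins. For severe against naive, miR-451-5p was at −1.23 with quantile normalization and the bound of miR-144-5p at 0.77 with normexp. The bound of the arm ratio was at 1.13 with the scanner software's total signal, 1.80 with a floor at the dimmest summed signal, −0.15 with the brightest probe, −0.42 with normexp and −0.18 without the dimmer probe of miR-144-5p. For severe against moderate, miR-451-5p was at −1.64, −1.23 and −1.07 without scaling, with quantile normalization and with spike-ins, and miR-144-3p at 0.81 without scaling. The arm ratio was at 1.81 with quantile normalization and −0.31 with normexp.

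Counts over all miRNAs moved by over 1.5 times in 47 of 112 values. Higher and lower counts for light against naive, 2 and 1 as reported, were 0 and 34 without scaling, 1 and 2 with the 75th percentile over all miRNAs, 1 and 5 with median scaling, 1 and 4 with summed-signal scaling, 1 and 1 with quantile normalization and 0 and 29 with spike-ins. They were 2 and 3 with the total signal, 0 and 4 with the brightest probe, 0 and 1 with normexp, 3 and 3 with that other floor and 1 and 3 in the deposited value table. For moderate against naive, 9 and 2 became 48 and 1, 21 and 1, 7 and 5, 7 and 5, 5 and 11, and 70 and 0 under the same 6 scalings. They became 23 and 5 with the total signal, 4 and 2 with the brightest probe, 0 and 0 with normexp and 37 and 3 with the other floor. For severe against naive, 33 and 25 became 23 and 53 without scaling, 31 and 41 with the total signal and 15 and 5 with normexp. For severe against moderate, 30 and 30 became 17 and 102 without scaling, 28 and 56 with the percentile over all miRNAs, 24 and 72 with spike-ins, 32 and 51 with the total signal, 30 and 18 with the brightest probe, 30 and 8 with normexp, 32 and 61 with the other floor and 24 and 16 in the value table. Over the 7 scalings the median of all miRNAs ranged from −0.63 to 0.27 for light against naive, 0 to 0.91 for moderate against naive, −0.79 to 0 for severe against naive and −1.61 to −0.07 for severe against moderate.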
